A study of Mus musculus with 8 samples.

Results

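The MHC class II presentation genes were followed by RNA-seq in LT-HSCs, with asrij KO mice compared with asrij floxed controls. The group holds 10 genes chosen by symbol (H2-Aa, H2-Ab1, H2-Eb1, Cd74, Ciita, H2-DMa, H2-DMb1, H2-DMb2, H2-Oa and H2-Ob) out of 54749 genes in the counts. The rule itself names symbols and uses no measured value. Asrij is the protein of the mouse gene Ociad1. LT-HSCs are the long-term fraction of hematopoietic stem cells, and cells labelled so were sorted from bone marrow by the authors, with 1 library per mouse. The control group is 4 homozygous asrij floxed mice (replicates 1, 3, 4 and 5), whose gene is flanked by recombination sites, and the test group is 4 whole-body asrij KO mice (replicates 2, 3, 4 and 5), all aged 6 months by the labels. The deletion is present in every tissue of the KO mice, so an effect within the sorted cells and an effect of their surroundings cannot be told apart. The methods name C57BL/6J as the wild type strain, state that mice of either sex were used, and define the sorted cells as LSK CD150+ CD48+ for the sequencing, where LSK stands for lineage-negative cells with c-Kit and Sca1. For LT-HSCs in other experiments the methods give CD48- in place of CD48+.

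MHC class II molecules are cell surface heterodimers of an alpha and a beta chain that show peptides from endocytosed proteins to CD4+ T cells. New chains are assembled in the endoplasmic reticulum with the invariant chain, the product of Cd74, which blocks the peptide groove and leads the complex to late endosomes. There proteases cut the invariant chain down to a short peptide, the DM heterodimer exchanges this peptide for antigen, and the DO heterodimer restrains DM. Ciita encodes the transactivator that is recruited to the promoters of these genes and sets their expression. Dendritic cells, macrophages and B cells are the best known class II positive cells, and class II transcripts and protein are also known in hematopoietic stem and progenitor cells. In bulk libraries such as these, fewer cells of a type and less RNA per cell cannot be told apart.

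All coordinates are GRCm38. 8 of the 10 genes lie on chromosome 17, in a class II region of 223860 bases from chr17:34092340 to chr17:34316199 between the start of H2-Oa and the end of the H2-Eb1 transcript counted. H2-Aa is on the minus strand (chr17:34282744-34287823) and the others there are on the plus strand. Ciita lies on chromosome 16 (chr16:10480059-10528418, plus strand).

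Class II promoters share an upstream module with an X box, bound by the RFX complex, and a Y box, bound by NF-Y, on which the transactivator assembles. The RefSeq promoter table (GRCm38.p6, 250 bases before the start site and 50 after) held 7 of the 10 members. The Y box core was searched on both strands as GATTGG, letters that 16.1% of all 32851 promoters in the table hold on either strand. The first listed promoter held them on the gene's own strand in 6 members, all except H2-DMa of the 7. The 50 bases that end with these letters are shown for 5 members because they span the shared module of the genes compared here, with capitals for the Y box letters.
H2-Eb1, chr17:34305763-34305812, plus strand: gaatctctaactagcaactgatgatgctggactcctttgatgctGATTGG
H2-Ob, chr17:34238803-34238852, plus strand: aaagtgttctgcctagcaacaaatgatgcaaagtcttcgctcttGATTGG
H2-DMb2, chr17:34145114-34145163, plus strand: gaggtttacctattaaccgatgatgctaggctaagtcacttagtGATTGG
H2-Aa, chr17:34287867-34287916, minus strand: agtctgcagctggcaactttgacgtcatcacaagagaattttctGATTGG
H2-Oa, chr17:34092291-34092340, plus strand: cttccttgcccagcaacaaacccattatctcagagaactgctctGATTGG
Counted from the start site, the Y box letters began at -60 in H2-Eb1, -58 in H2-Ob, -91 in H2-DMb2, -49 in H2-Aa and -44 in H2-Oa, and at -62 in H2-DMb1. A match is a description of letters and not of binding.

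Values are given as CPM, read counts relative to the TMM-scaled library size. Between genes, levels were compared as CPM per kb of spliced transcript, averaged over all 8 libraries. Cd74 was the most abundant member with 181.4 ± 28.5 CPM per kb (SD, n = 8), and its lowest library was above the highest of every other member. The classical chains followed, with 69.4 ± 20.2 for H2-Ab1, 64.9 ± 5.68 for H2-Aa and 51.6 ± 11.8 for H2-Eb1. H2-Ab1 was above H2-Aa in 5 of 8 libraries, and the ranges of neighbours in this order overlapped. The peptide editors lay lower, from H2-DMa at 18.7 ± 5.09 and H2-DMb1 at 14.6 ± 3.002 to H2-DMb2 at 11.5 ± 1.38, followed by H2-Ob at 10.4 ± 2.17 and H2-Oa at 6.27 ± 1.87 CPM per kb. The ranges of H2-Eb1 and H2-DMa did not overlap, while those of each neighbouring pair from H2-DMa to H2-Oa did. Ciita, which encodes the regulator of the others, was the lowest member at 2.22 ± 0.625 CPM per kb, below every library of H2-Oa. The counts mostly appear to cover introns as well, so the spliced length is a choice. Per kb of genomic span, an order added after seeing the data, Cd74 (25.2 ± 3.96) and Ciita (0.333 ± 0.0935 CPM per kb of span) kept the highest and the lowest place. In that order H2-Aa (14.4 ± 1.26) came before H2-Ab1 (13.5 ± 3.94), H2-Ob (3.95 ± 0.82899) came before the DM genes, and H2-DMa (1.91 ± 0.519) came after H2-Oa (2.35 ± 0.703 CPM per kb of span, SD, n = 8). The CPM of the 10 members summed to between 402.8 and 624.1 in floxed and between 515.4 and 634.4 in KO libraries, and Cd74 made up 38.2 to 43.1% of each sum.

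No class II member was called different between KO and floxed LT-HSCs. None of the 10 passed an adjusted p-value of 0.05 in edgeR's quasi-likelihood test (Benjamini-Hochberg over 21902 genes), where 2.97% of all tested genes did, and 0 passed both thresholds for a call, that limit together with an absolute log2 fold change above 1.5, where 1.19% of all genes did. At an unadjusted p-value under 0.05 the count was 1, Ciita. The fitted log2 fold change was above 0 for 6 members and below 0 for 4, with a median of 0.18 against -0.0058 for all genes tested. The bounds of the 95% confidence intervals of the 10 members lay between -1.04 and 1.14, inside the fold threshold. With a block for libraries numbered 4 and 5 against 1 to 3, 2 members (Ciita and H2-Oa) had an adjusted p-value under 0.05 by edgeR, where 18.5% of all genes did.

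The values of the classical alpha and beta chains overlapped between the genotypes. H2-Aa, the alpha chain of the A heterodimer, had 69.8, 61.6, 82.1 and 79.5 CPM in the floxed libraries (replicates 1, 3, 4 and 5), and 71.2, 70.3, 75.4 and 75.6 CPM in the KO libraries (replicates 2, 3, 4 and 5). All 4 KO libraries lay inside the floxed range. The log2 fold change of H2-Aa was -0.0022 (SE 0.14, 95% confidence interval -0.31 to 0.31, adjusted p = 0.995 by edgeR). Its partner H2-Ab1 had 65.3, 41.6, 90.6 and 108.1 CPM in the floxed group and 82.0, 68.7, 106.5 and 110.1 CPM in the KO group in the same order. The ranges overlapped, and the lowest value was floxed replicate 3. H2-Ab1 averaged 76.4 ± 29.1 CPM in the floxed group and 91.8 ± 19.8 CPM in the KO group (SD, n = 4 each), and the log2 fold change was 0.27 (interval -0.38 to 0.91, adjusted p = 0.645 by edgeR). H2-Eb1, the beta chain of the E heterodimer, had 45.7, 35.0, 63.8 and 72.7 CPM in the floxed group and 64.9, 56.3, 74.1 and 70.3 CPM in the KO group. Again the groups overlapped with the lowest value in floxed replicate 3, and the log2 fold change was 0.29 (interval -0.22 to 0.80, adjusted p = 0.501 by edgeR).

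Cd74, on chromosome 18, had 180.0, 162.0, 237.3 and 238.1 CPM in the floxed group and 247.3, 207.4, 254.6 and 249.4 CPM in the KO group. Of the KO libraries, 3 lay above every floxed library, and KO replicate 3 lay between floxed values. The mean was 204.4 ± 39.2 CPM in the floxed group and 239.7 ± 21.8 CPM in the KO group (SD, n = 4 each), and the log2 fold change was 0.23 (SE 0.18, interval -0.17 to 0.63, adjusted p = 0.503 by edgeR).

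**Figure D1:**
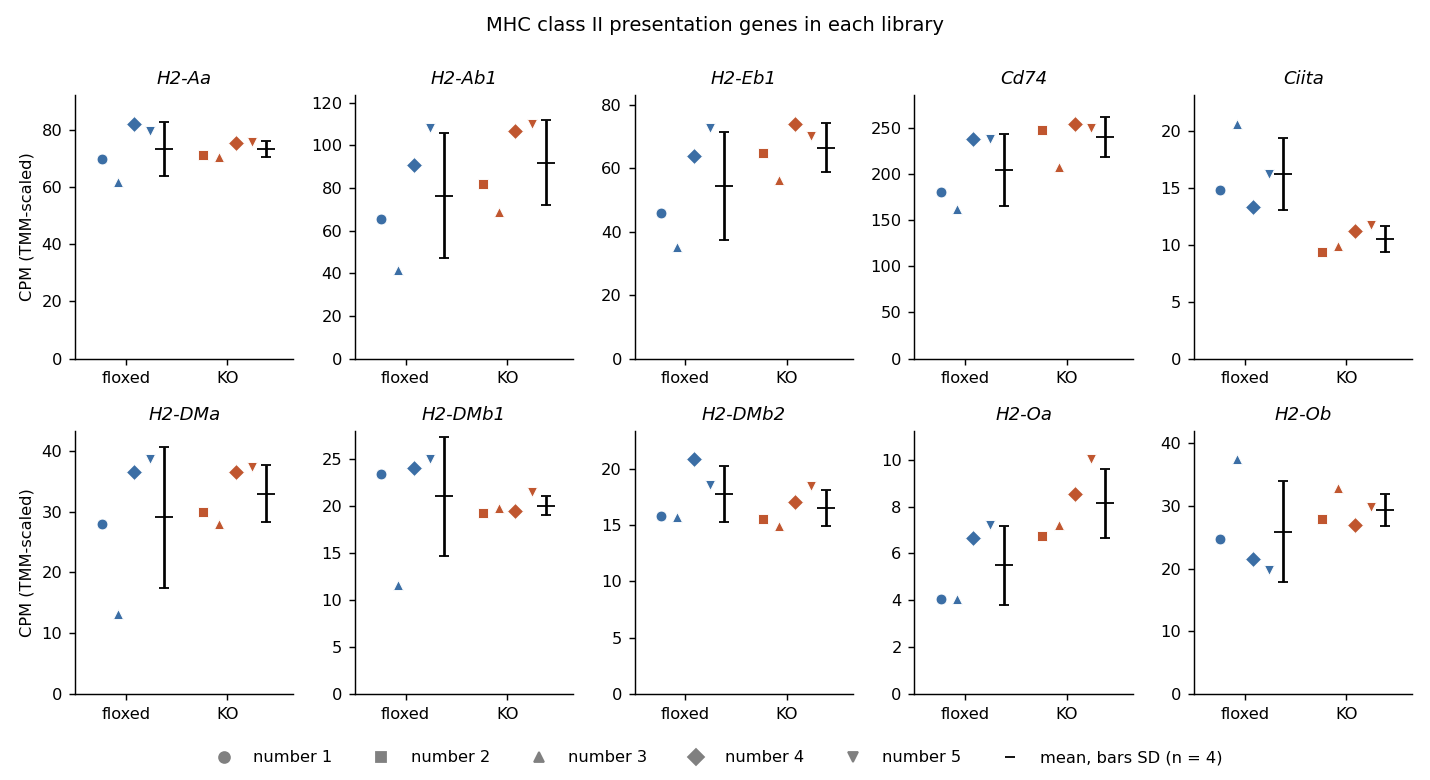
CPM of the 10 class II presentation genes in each floxed (blue) and KO (orange) library, with marker shapes for the replicate numbers and black bars for the mean and SD of 4 libraries. The groups overlap in every panel except Ciita, where the KO libraries (9.30 to 11.7 CPM) lie below the floxed libraries (13.3 to 20.6 CPM).

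The DM genes, whose products load peptide, also overlapped between genotypes. H2-DMa, the DM alpha chain, had 28.0, 13.1, 36.5 and 38.7 CPM in the floxed group and 29.9, 28.0, 36.5 and 37.4 CPM in the KO group. Floxed replicate 3 stood well below the other 7 libraries, and the log2 fold change was 0.18 (interval -0.49 to 0.85, adjusted p = 0.774 by edgeR). The DM beta chain has a pair of genes in mice. H2-DMb1 had 23.4, 11.6, 24.1 and 25.03 CPM in the floxed group and 19.3, 19.8, 19.5 and 21.5 CPM in the KO group, and H2-DMb2 had 15.8, 15.7, 20.9 and 18.6 against 15.6, 14.9, 17.1 and 18.5 CPM. In H2-DMb1 every KO library lay between floxed replicate 3 and the other floxed libraries, while H2-DMb2 showed no library apart. Their log2 fold changes were -0.07 (interval -0.59 to 0.45, adjusted p = 0.898) and -0.10 (interval -0.46 to 0.26, adjusted p = 0.757 by edgeR). Of the 50-base stretches of the H2-DMb1 transcript, 27.2% also occur in H2-DMb2, so reads of these genes may be counted on either of them, and the other members shared none with another gene except H2-DMb2.

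Of the DO genes, whose products inhibit DM, H2-Oa gave the largest positive difference of all members. H2-Oa, the DO alpha chain, had 4.03, 4.07, 6.68 and 7.20 CPM in the floxed group and 6.74, 7.23, 8.55 and 10.04 CPM in the KO group. Only KO replicate 2 lay within the floxed range, and only below floxed replicate 5. The mean was 5.50 ± 1.68 CPM in the floxed group and 8.14 ± 1.48 CPM in the KO group (SD, n = 4 each), and the log2 fold change was 0.57 (SE 0.26, interval -0.0031 to 1.14, unadjusted p = 0.051, adjusted p = 0.233 by edgeR). Libraries numbered 1 to 3 and those numbered 4 and 5 differ in both genotypes, so the genotypes were also compared within each set. Within numbers 1 to 3 the log2 ratio of the KO to the floxed mean of H2-Oa was 0.79, and within numbers 4 and 5 it was 0.42. The genotypes did not overlap in either set, but each set holds few libraries. The share of all genes that separate in this way was not counted. With these number sets as a block, H2-Oa passed (log2 fold change 0.60, adjusted p = 0.0234 by edgeR) in a fit that gave 18.5% of all genes an adjusted p-value under 0.05. H2-Oa lies inside the span of BC051537, an antisense gene on the other strand. BC051537 had 6.61 ± 1.58 CPM in the floxed group and 8.64 ± 1.41 CPM in the KO group (log2 fold change 0.39, adjusted p = 0.364 by edgeR), and without strand the reads of these genes cannot be told apart.

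H2-Ob, the DO beta chain, ran differently from its partner. It had 24.8, 37.5, 21.5 and 19.9 CPM in the floxed group and 27.9, 32.9, 27.0 and 29.8 CPM in the KO group. Here floxed replicate 3 was the highest of all 8 libraries and the other floxed libraries were the 3 lowest. The log2 fold change of H2-Ob was 0.18 (interval -0.29 to 0.65, adjusted p = 0.673 by edgeR), and without floxed replicate 3 it was 0.43 (interval 0.12 to 0.73, adjusted p = 0.0616). As CPM per kb, H2-Oa came to 0.266 of H2-Ob in floxed replicate 3 and to between 0.399 and 0.891 in the other libraries.

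Ciita was the single member with no overlap between the genotypes. It had 14.8, 20.6, 13.3 and 16.2 CPM in the floxed group and 9.30, 9.83, 11.2 and 11.7 CPM in the KO group. The highest KO library was below the lowest floxed library, a separation that 14.8% of all tested genes also showed. The mean was 16.2 ± 3.17 CPM in the floxed group and 10.5 ± 1.14 CPM in the KO group (SD, n = 4 each), and the log2 fold change was -0.62 (SE 0.18, interval -1.04 to -0.21, unadjusted p = 0.0070). The adjusted p-value of 0.0887 by edgeR did not pass. It passed with DESeq2 (log2 fold change -0.61, adjusted p = 0.0241), which gave 11.4% of all genes an adjusted p-value under 0.05, and with the block for numbers 4 and 5 (-0.63, adjusted p = 0.0297 from edgeR), and over all alternatives the adjusted p-value of Ciita ranged from 0.0241 to 0.396 and its log2 fold change from -0.84 to -0.48. Between the means of numbers 1 to 3 the log2 ratio was -0.89, and between those of 4 and 5 it was -0.36.

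The transcript of Ciita that was counted overlaps Dexi, a gene on the other strand. Dexi had 28.0, 34.5, 34.1 and 42.2 CPM in the floxed group and 18.0, 19.3, 28.8 and 26.6 CPM in the KO group. The genotypes overlapped there, and the log2 fold change of -0.58 (SE 0.20, adjusted p = 0.136 by edgeR) was close to that of Ciita. The counting is not stated. The counts mostly behave as if reads over the whole span of a transcript were taken, though those of H2-Aa-203 do not. If spans were counted, reads of Dexi and Ciita may not be told apart where they overlap. The span of Ciita-203, a shorter Ciita transcript with a later start and an earlier end, had 8.94 ± 3.65 CPM in the floxed group and 4.95 ± 0.741 CPM in the KO group (SD, n = 4 each), and the rest of the counted transcript had 7.27 ± 1.23 and 5.57 ± 0.647 CPM. In both parts the KO mean was the lower, and in both the genotypes overlapped, since floxed replicate 4 had 4.51 CPM on the span of Ciita-203 and floxed replicate 1 had 5.75 CPM on the rest. Ciita-205, which starts before the counted transcript and ends with Ciita-203, totalled 2176 counts, against 2037 for Ciita-203 and 3765 for the counted transcript. Most counts of the rest would then lie past that end (10526426 to 10528418). This stretch is wholly inside the span of Dexi (10502531 to 10543054), so the rest may hold Dexi reads. Dexi also overlaps the span of Ciita-203 (10489781 to 10526426), so that part may hold them too. The split therefore does not set Ciita apart from Dexi.

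**Figure D2:**
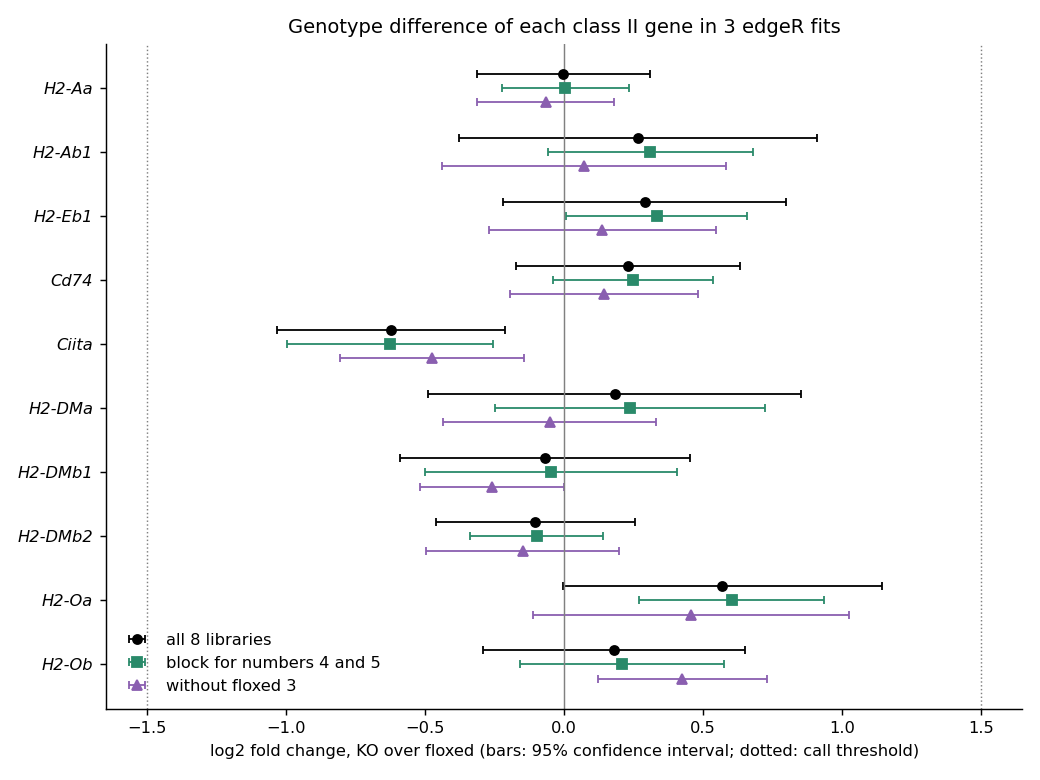
Log2 fold change of KO over floxed for each class II gene with its 95% confidence interval, in edgeR fits of all 8 libraries (black), with a block for numbers 4 and 5 against 1 to 3 (green) and without floxed replicate 3 (purple). With all libraries only the interval of Ciita (-1.04 to -0.21) lies wholly on one side of 0, and no interval reaches the dotted call thresholds of 1.5.

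Taken over all 8 libraries, Ciita did not run in parallel with most of the genes it is known to activate. Across the 8 libraries, the Pearson correlation of log2(CPM + 1) was 0.97 between H2-Eb1 and H2-Ab1, 0.97 between Cd74 and H2-Eb1, and 0.96 between H2-DMa and H2-Ab1. That of Ciita with the other members ran from -0.65 (Cd74) to 0.15 (H2-DMb2), with -0.48 for H2-Ab1 and -0.32 for H2-Aa. That of H2-Ob with H2-Aa was -0.83. These are descriptions over 8 libraries that share genotype, number set and the low values of floxed replicate 3. Ciita may also share reads with Dexi. In KO libraries the means of numbers 4 and 5 were above those of 1 to 3 in both Ciita and H2-Ab1 (log2 ratios 0.26 and 0.52). In floxed libraries these ratios were -0.27 and 0.89.

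The largest differences among libraries of a genotype came with 1 library and with the replicate numbers. In CPM, floxed replicate 3 was the lowest of all 8 libraries in 6 members (H2-Aa, H2-Ab1, H2-Eb1, Cd74, H2-DMa and H2-DMb1) and the highest in 2 (Ciita and H2-Ob). Its gene counts totalled 44874882, against 23412829 to 39108294 in the others. It had 34367 genes with a count, against 28182 to 29707, and the highest TMM factor (1.181). Of those 6 members, its raw count was the lowest only in H2-DMa (693) and the highest in H2-Aa (3259). Set against the mean CPM of the other floxed libraries, floxed replicate 3 came to 38.1% in H2-DMa, 47.2% in H2-Ab1, 48.1% in H2-DMb1 and 57.7% in H2-Eb1, but to 139.9% in Ciita and 170.1% in H2-Ob. The spread differed by gene within this library, since H2-Aa was at 79.9% while its partner H2-Ab1 was at 47.2%. As CPM per kb, H2-Aa came to 1.59 times H2-Ab1 in floxed replicate 3 and to between 0.737 and 1.15 times in the other 7 libraries. Without this library the fitted log2 fold change of H2-DMa moved from 0.18 to -0.05 (adjusted p = 0.866) and that of H2-DMb1 from -0.07 to -0.26 (adjusted p = 0.161, both by edgeR). No member passed in that fit, in which 17.5% of all tested genes had an adjusted p-value under 0.05.

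The mean of numbers 4 and 5 was above that of numbers 1 to 3 in 8 of 10 members in floxed and in 9 of 10 in KO libraries. The labels do not say what the numbers stand for. In floxed libraries the log2 ratio of these means was 0.89 for H2-Ab1, 0.87 for H2-DMa and 0.76 for H2-Eb1, and in KO libraries it was 0.52, 0.35 and 0.25. The sign of the difference between KO and floxed means was the same in both number sets for 6 of the 10 members.

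**Figure D3:**
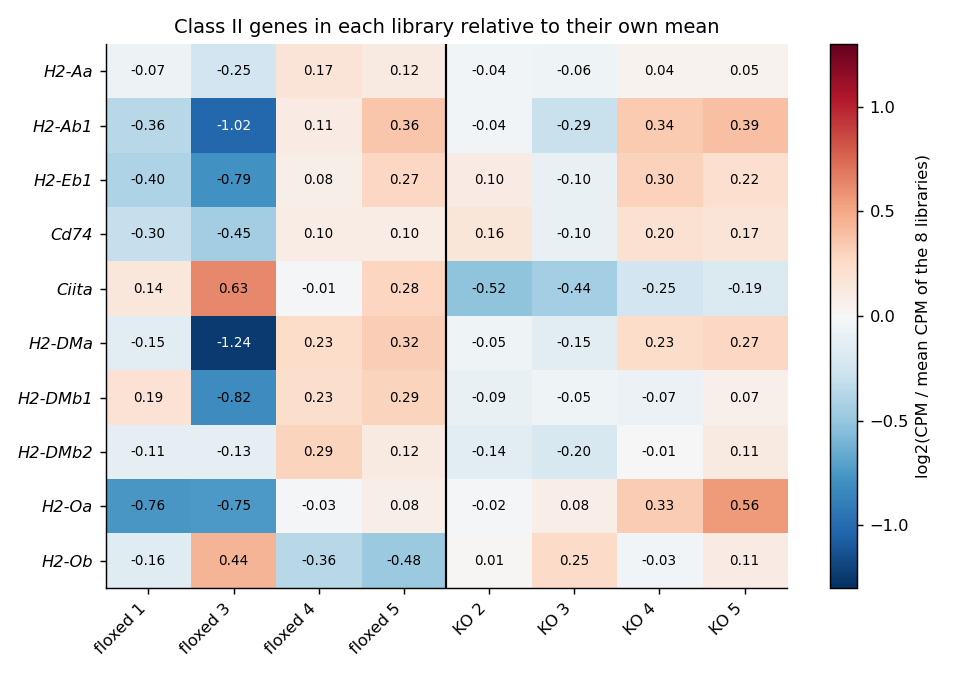
Each class II gene (rows) in each library (columns), as the log2 ratio of its CPM to its own mean over the 8 libraries, with floxed left and KO right of the black line. Floxed replicate 3 has the lowest value of its row in H2-Aa, H2-Ab1, H2-Eb1, Cd74, H2-DMa and H2-DMb1 and the highest in Ciita and H2-Ob, and the Ciita row is below 0 in all KO libraries.

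The low values of floxed replicate 3 were shared by neighbours on chromosome 17. The class II region held 15 tested genes, 8 of them members, and 0 had an adjusted p-value under 0.05 between genotypes. Floxed replicate 3 was the lowest library in 11 of the 15 and the highest in 1, H2-Ob, against 21.1% and 23.3% of all tested genes. Among the genes that are not members, Tap1 and Tap2, which carry peptides for class I, were at 68.8 and 65.5% of the mean of the other floxed libraries, and Psmb8 and Psmb9, subunits of the immunoproteasome, at 58.5 and 66.7%. The 11 also include Gm20496, listed as antisense, at 58.7%, and Gm15821, a long non-coding RNA, at 72.5%. Gm20496 ran close to Psmb8, and genes of the region may share reads, so the 15 may not be separate measurements. H2-Ea-ps, listed as a polymorphic pseudogene and holding the E alpha chain sequence, had counts of 0, 1568, 50 and 47 in floxed replicates 1, 3, 4 and 5 and of 0, 8, 0 and 3 in KO replicates 2, 3, 4 and 5. As CPM these were 29.7 in floxed replicate 3, 2.13 and 1.80 in replicates 4 and 5, and at most 0.208 elsewhere, and the gene did not pass the filter on low counts. Of the 8 alternative fits in which it was tested, it passed as lower in the KO group in 2, with no filter beyond 1 count (adjusted p = 0.0329) and when blocked on the replicate number (adjusted p = 0.0289 by edgeR), on counts that lie mostly in floxed replicate 3. The E alpha gene is known to be silent in C57BL/6 mice and to be transcribed in mice of several other strains. Btnl2, a neighbour of H2-Ea-ps, had 9.48 CPM in floxed replicate 3 and 2.03 to 2.89 CPM in the other libraries. Their part in the class II values of floxed replicate 3 was not tested.

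**Figure D4:**
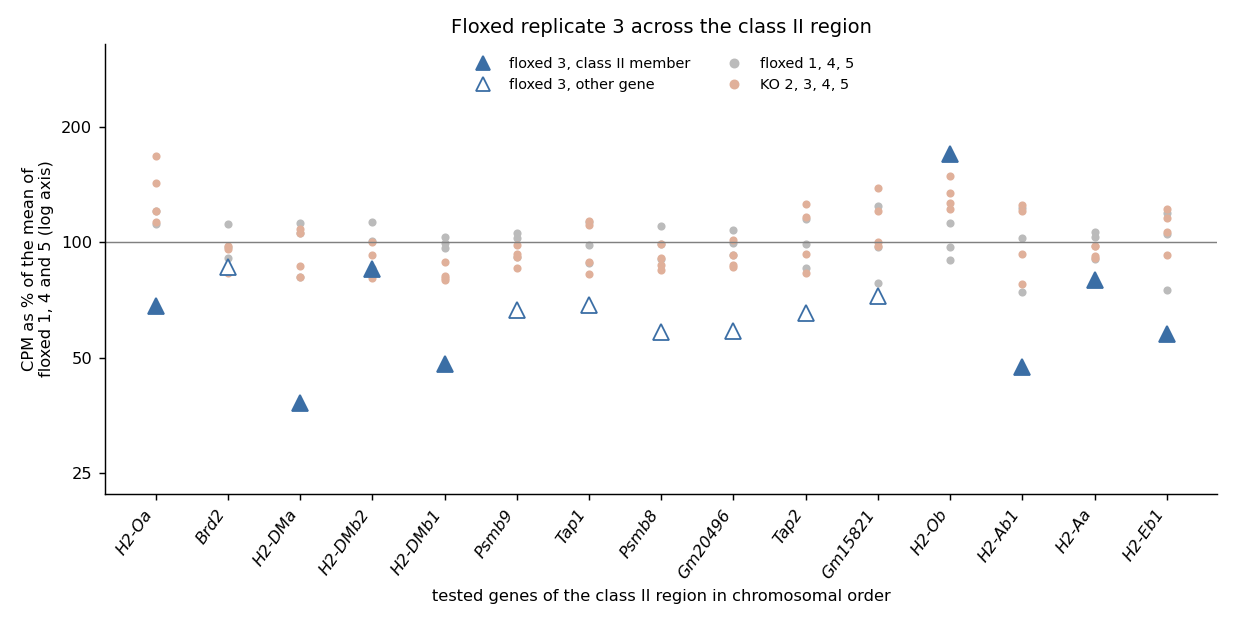
CPM of the 15 tested genes of the class II region in chromosomal order, as a percent of the mean of floxed replicates 1, 4 and 5 on a log axis, with triangles for floxed replicate 3 (filled for members) and dots for the other libraries. Floxed replicate 3 lies below all other libraries in 11 genes, down to 38.1% in H2-DMa, and above them in H2-Ob at 170.1%.

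Counts on a shorter transcript of H2-DMb1 also set floxed replicate 3 apart, but those on other shorter transcripts mostly did not. H2-DMb1-202, a transcript with a retained intron inside H2-DMb1, had counts of 31.5, 74.0, 19.8 and 22.7% of those on the counted H2-DMb1 transcript in floxed and 24.7, 28.2, 27.5 and 26.3% in KO libraries. Floxed replicate 3 stood apart from the other 7 libraries, of which floxed replicate 1 was the highest. Ciita-203 had 61.1, 65.2, 34.0 and 54.3% of the counts on the counted Ciita transcript in floxed and 46.3, 47.6, 42.7 and 51.2% in KO libraries. Here floxed replicate 4 had the lowest share, and the KO libraries lay inside the floxed range.

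**Figure D5:**
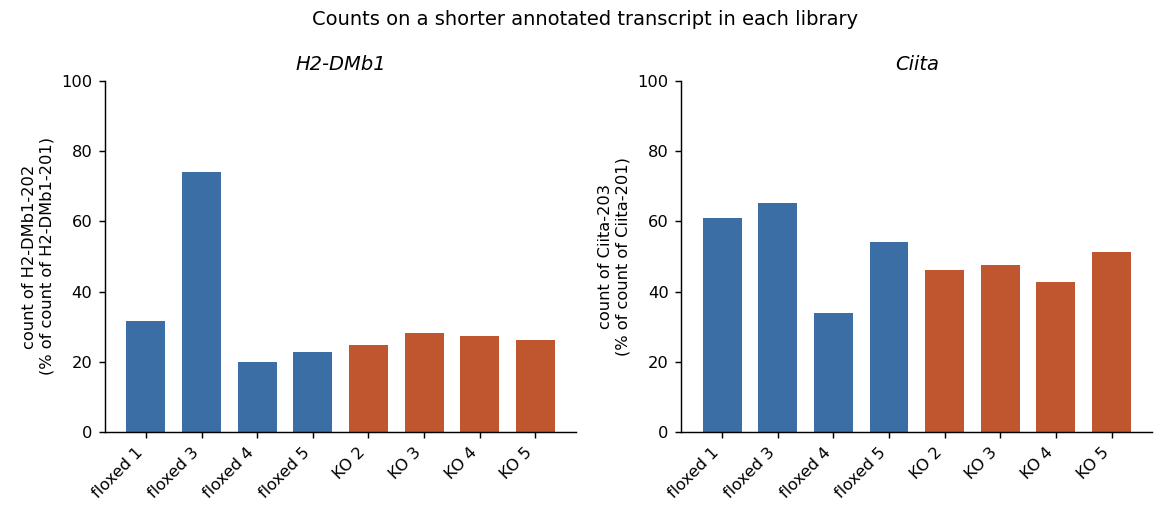
Count of H2-DMb1-202 (left) and of Ciita-203 (right) as a percent of the count of the longer transcript used for the gene, in each floxed (blue) and KO (orange) library. Floxed replicate 3 reaches 74.0% for H2-DMb1 against 19.8 to 31.5% in the others, while for Ciita the shares run from 34.0 to 65.2% with the genotypes overlapping.

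No listed gene upstream of class II transcription passed the edgeR test of all libraries without a block. Of 11 tested factors that act with or induce Ciita, among them the RFX and NF-Y subunits, 0 had an adjusted p-value under 0.05, with 3 fold changes above 0 and 8 below and a median log2 fold change of -0.12. Creb1, which binds next to RFX, had 94.98 ± 24.3 CPM in the floxed group and 65.8 ± 13.2 CPM in the KO group (log2 fold change -0.53, adjusted p = 0.191 by edgeR). Rfxank, a subunit of RFX, had 17.6 ± 3.03 and 23.2 ± 2.62 CPM (0.40, adjusted p = 0.212 by edgeR). Its groups did not overlap, as in 14.8% of all tested genes. Nfya had 95.7 ± 4.35 and 85.0 ± 9.89 CPM (-0.17, adjusted p = 0.513 by edgeR). With the block for numbers 4 and 5, where 18.5% of all genes passed, Creb1 was lower (-0.52, adjusted p = 0.0183) and Rfxank higher (0.41, adjusted p = 0.0300 by edgeR) in KO LT-HSCs. Interferon gamma is the best known inducer of Ciita. Of 6 tested genes of its signalling, 0 passed, 5 had fold changes below 0 and the median was -0.33. Jak1, a kinase of the receptor, had 212.4 ± 32.9 CPM in the floxed group and 138.6 ± 15.4 CPM in the KO group (-0.62, adjusted p = 0.0728), and Ifngr1, a receptor chain, had 141.0 ± 34.4 and 90.6 ± 2.89 CPM (-0.64, adjusted p = 0.100 by edgeR). With that block 3 of the 6 were lower in KO LT-HSCs (Jak1, Jak2 and Ifngr1), with DESeq2 2 were (Jak1 and Ifngr1, against 11.4% of all genes), and without floxed replicate 3 it was 3 of 7 tested (Jak1, Ifngr1 and Ifngr2, against 17.5%).

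Among the proteases and other lysosomal proteins listed for antigen and invariant chain processing, 1 of 11 tested genes passed. Lgmn, the asparaginyl endopeptidase, rose from 13.9 ± 1.60 CPM (12.3 to 16.1) in floxed to 36.9 ± 4.60 CPM (30.5 to 41.0) in KO mice (log2 fold change 1.41, SE 0.16, adjusted p = 0.00471 by edgeR). It passed the adjusted p-value and not the fold threshold, with adjusted p-values of 0.00108 to 0.0312 when 1 library was left out and of 0.051 when blocked on the replicate number, a fit of 6 libraries in which 0.222% of all genes passed. Ctsf and Ctsb, lysosomal cathepsins, had 5.18 ± 3.29 against 13.3 ± 1.60 CPM (1.36, adjusted p = 0.0839 by edgeR) and 421.9 ± 40.7 against 587.7 ± 44.97 CPM (0.48, adjusted p = 0.133 by edgeR). The groups did not overlap in either, nor in 4 of the 11 in all, against 14.8% of all tested genes. Without floxed replicate 3, 4 of the 11 were higher in KO LT-HSCs by an adjusted p-value under 0.05, against 17.5% of all genes, and 0 were when the replicate number served as a block. The median log2 fold change of the 11 was 0.10, with 6 above 0 and 5 below. Ctss, another cathepsin, was at -0.01 (adjusted p = 0.983 by edgeR).

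The ligases that mark class II for turnover had opposite signs. March1 had 56.7 ± 11.4 CPM in the floxed group and 33.3 ± 7.06 CPM in the KO group (log2 fold change -0.77, adjusted p = 0.0673 by edgeR). Its groups did not overlap, as in 14.8% of all tested genes. March8 had 120.7 ± 71.7 and 229.3 ± 15.3 CPM (0.92, adjusted p = 0.149 by edgeR). Neither ligase passed in this fit. Both passed with DESeq2 (adjusted p = 0.0137 and 0.0466), where 11.4% of all genes passed. Both also passed with the block for numbers 4 and 5 (0.00952 and 0.0485 by edgeR), where 18.5% did. Without floxed replicate 3, where 17.5% did, both passed (log2 fold changes -0.81 and 1.44, adjusted p = 0.0271 and 0.000385 by edgeR). Of the 8 fits that leave out a library, each ligase passed in that 1 only. Neither passed when blocked on the replicate number (adjusted p = 0.185 and 0.216 by edgeR). Of 6 tested costimulatory and coinhibitory genes, which act on the T cell beside class II, 0 passed, with 5 fold changes below 0 (among them Cd80 at -0.54, adjusted p = 0.170, and Icosl at -0.59, adjusted p = 0.178 by edgeR). With the block for numbers 4 and 5, where 18.5% of all genes passed, Cd80 was lower (-0.56, adjusted p = 0.0128 by edgeR). Without floxed replicate 3, where 17.5% did, Icosl was lower (-0.78, adjusted p = 0.00405) and Cd40 higher (0.53, adjusted p = 0.0440 by edgeR) in KO LT-HSCs. H2-Eb2, a further class II beta chain gene, gave 0.18 (adjusted p = 0.804 by edgeR), and of 7 other genes in and beside the class II region, 0 passed.

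Markers of other class II positive cells were present in all libraries. Summed over 10 B cell markers, CPM ran from 338.4 to 639.9 in floxed and from 562.5 to 614.1 in KO libraries, with the highest sum in floxed replicate 3, where most class II genes were lowest. Of the 10, 1 passed, Cd79a, a chain of the B cell receptor (log2 fold change 0.81, adjusted p = 0.0408 by edgeR), and without floxed replicate 3, where 17.5% of all genes passed, it was 6, all higher in KO LT-HSCs. The 11 dendritic cell markers summed to 325.8 to 375.3 CPM in the floxed group and 352.0 to 403.0 CPM in the KO group, and 0 passed, with Itgax at -0.58 (adjusted p = 0.128 by edgeR). The 10 macrophage and monocyte markers summed to 573.1 to 1021 CPM and 752.5 to 770.0 CPM, with the lowest sum in floxed replicate 3. Of these C1qa (log2 fold change 1.26, adjusted p = 0.0334) and C1qc (1.25, adjusted p = 0.0245 by edgeR), chains of complement C1q, were higher in KO LT-HSCs. Of all 10, 6 had fold changes above 0 and 4 below, among them Ccr2 (-1.02, adjusted p = 0.109 by edgeR). Without floxed replicate 3, 7 of them passed, 5 higher and 2 lower. Cd79a kept an adjusted p-value under 0.05 in 1 of the 8 fits that leave out a library, without floxed replicate 3, and C1qa and C1qc did in 2 each. With the replicate number as a block, 0 markers of these 3 lists passed. No gene of the B cell or macrophage lists was at 0 in all libraries, and the part of these cells in the class II values was not tested.

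For the rest of the transcriptome, values are given in brief. Library totals ran from 56661356 to 120858975 transcript counts. Ociad1, the targeted gene, had 31.4 to 66.9 CPM in the floxed group and 11.7 to 19.7 CPM in the KO group (log2 fold change -1.58, adjusted p = 0.0249 by edgeR), and 261 of 21902 genes were called. Lists of 6 T cell, 6 plasma cell, 8 erythroid, 5 megakaryocyte, 8 neutrophil and 10 HSC markers had 0, 0, 3, 4, 0 and 1 genes higher in KO LT-HSCs and 0, 2, 0, 0, 0 and 0 lower. Without floxed replicate 3 the T cell, plasma cell, erythroid, megakaryocyte, neutrophil and HSC lists had 1, 3, 8, 4, 4 and 3 such genes, against 17.5% of all genes, and when blocked on the replicate number 1, a megakaryocyte marker. The summed CPM of the erythroid markers was 17577 to 45545 in floxed and 78512 to 188753 in KO libraries, that of the neutrophil markers 16404 to 52240 and 24657 to 31402, and that of the HSC markers 95.8 to 116.9 and 103.7 to 125.6. Among the HSC markers, Kit had 46.8 to 60.2 CPM, while Procr and Fgd5 had at most 0.962 and 1.09 CPM.

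The 5 genes whose pattern was most like that of the abundant class II genes were on none of the lists. By Pearson correlation over the 8 libraries with the mean standardized log2(CPM + 1) of H2-Aa, H2-Ab1, H2-Eb1 and Cd74, the 5 highest of 21898 genes were Ctdnep1 (0.995), Slx1b (0.994), Gm8518 (0.993), Rarg (0.993) and Mkrn2 (0.992). Ctdnep1 had 32.9, 22.7, 56.0 and 60.2 CPM in the floxed group and 44.5, 39.1, 55.8 and 56.7 CPM in the KO group, again lowest in floxed replicate 3. Of the genes on the lists, Gp1bb, a platelet glycoprotein gene of the megakaryocyte list, came first with 0.983 at rank 29, followed by Ctsd with 0.953 at rank 266, H2-DMa with 0.952 at rank 284, Tap2 with 0.937 at rank 458 and Tap1 with 0.925 at rank 625.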

How the data were processed

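The authors deposited raw counts of reads on 138930 transcripts in each of 8 libraries. Before counting, reads went through FastQC and Trim Galore and were aligned with Bowtie 2 to GRCm38/mm10 transcripts. The counting tool, annotation release, versions and use of strand are not given in the sources used here. In 7 of the files the deposited whole-number counts are separated by tabs, and their unit is recorded as other for that reason. GENCODE M21 assigned 138789 transcripts to genes. The counts mostly behave as if reads were taken over the whole span of a transcript and on several transcripts of a gene. Each gene therefore takes the largest of its transcripts by total. H2-Aa-203 is an exception, with 863 counts against 8875 on H2-Aa-202, which lies within its span. How reads were assigned to transcripts is thus not settled. After filterByExpr and TMM scaling, genotypes were compared by the quasi-likelihood test of edgeR 4.0.16 in R 4.3.3, and p-values were adjusted by Benjamini-Hochberg over all genes tested. limma 3.58.1 and DESeq2 1.42.0 were alternatives. Tested on simulated data (21320 genes, 200 of them changed by a log2 fold change of 2.5 between groups sized as KO and floxed), the edgeR fit recovered 94.5% of the changed genes, with 3.08% of its calls false. The changed genes excluded the least expressed, and the simulation held no number sets and no library like floxed replicate 3. Recovery of changes as small as those of the members (at most 0.62) was not tested. The 10 members and all gene lists were chosen with earlier results of these data known. The rule named up to 3 genes of each list by the smallest adjusted p-values, and other genes were named after their values were seen. Promoter sequence is from RefSeq (GRCm38.p6).

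Numbers 3, 4 and 5 occur in both genotypes but belong to different mice, so the comparison was not paired by number. It has no term for the number sets 1 to 3 and 4 and 5 either. Deviations from the genotype means correlated across genes in the pairs that share a number (r = 0.374, 0.394 and 0.579), and as much in pairs with other numbers within 1 to 3 or within 4 and 5 (0.346 to 0.603). In pairs across these sets r was -0.589 to -0.34. The number sets thus split the libraries of both genotypes, and the fit with them as a block was an alternative.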

Additional observations from a re-analysis of the deposited data

Results flagged for a closer look

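In 20 groups of 4 libraries (10 members in each genotype), 2 had a library that stood apart by Dixon's test on log2(CPM + 1), where chance gives such a library in about 5 percent of groups. H2-DMb1 in floxed replicate 3 was at 3.66, below 4.61 to 4.70 in the other floxed libraries. Cd74 in KO replicate 3 was at 7.70, below 7.96 to 7.998 in the other KO libraries.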

How the results depend on the processing

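The number of class II members with an adjusted p-value under 0.05 was 0 with all libraries, 1 with DESeq2 (Ciita) and 2 with the block for numbers 4 and 5 (Ciita and H2-Oa), and 0 in every other alternative run, the fits that leave out 1 library included. Across all genes, 261 were called, 503 with DESeq2 and 521 with the block for numbers 4 and 5. In the 3 pairs that share a number, blocked on that number, 44 genes were called and 0 members had an adjusted p-value under 0.05. In these 6 libraries without the block, a fit added after seeing the data, 23 genes were called. The block changed no call of a member. Leaving out 1 library gave from 51 genes (without floxed replicate 1) to 857 (without floxed replicate 3). Each omission moved this count by over 1.5 times, to 156 without floxed replicate 4, 78 without floxed replicate 5, and 65, 78, 56 and 52 without KO replicates 2, 3, 4 and 5. Without scaling factors (library totals only) the median log2 fold change of all genes was -0.20, and 60 genes were higher and 253 lower, against 99 and 162. The split was 113 higher and 73 lower with limma-voom. Relative to 0, the sign of the fold change held in all alternatives for H2-Ab1, H2-Eb1, Cd74, Ciita, H2-DMb2 and H2-Oa, and it changed without passing in some for H2-Aa, H2-DMa, H2-DMb1 and H2-Ob. Leaving out overlapping genes gave no value for Cd74, Ciita, H2-DMa and H2-Oa. The causes were not tested. The p-values measure the spread between 4 mice of each genotype.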
